A study of Mus musculus with 21 samples.

Results

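The 7 genes described here, known as formative or early postimplantation epiblast factors, were followed across cultured mouse stem cells and whole mouse epiblasts. They are Otx2, Fgf5, Pou3f1, Foxd3, Tcf15, Sall2 and Sox4. The genes were taken by symbol from a table of raw counts, and all 7 were found among its 33861 genes. RNA-seq counts were given for 21 samples. The FS1 and FS2 groups are 2 lines of formative stem cells (FS, titled 5cdr1 and 5cdr2) grown in a medium called A3XR, and FS1 was sampled at passages 10, 11 and 18 and FS2 at passages 12, 13 and 16. AF and AFX are epiblast stem cells (EpiSCs) whose titles carry the line name E14, grown in media called AF and AFX and each sampled at passages 14, 15 and 16. For each of these 12 samples 1000 cells were collected. The other 9 samples are epiblasts collected one by one, 3 each at embryonic day (E) 5.0, 5.5 and 6.0. The E6.0 samples carry that stage in their titles but day 6.5 in another label, and the title was followed here. No strain, genotype, sex or manipulation is named for any sample, and the contents of the 3 media are not given in the sources used here.

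Formative pluripotency is the phase that epiblast cells pass through after implantation, between the naive state of the preimplantation embryo and the primed state that precedes gastrulation. Cells lose the naive network in this phase, gain competence for germ layer and germ cell formation, and turn on a set of transcription factors and the ligand Fgf5. FS cells are cultures meant to hold this phase, and EpiSCs are cultures that resemble the later, primed epiblast. Replicates of a cultured group are passages of a line, so their p-values measure the spread between passages, and a comparison of FS with AF or AFX is between different lines as well as different media. Epiblast replicates are separate embryos. In such bulk samples, fewer cells of a type and less RNA per cell cannot be told apart.

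Total counts per sample ran from 5827093 to 15916800, and levels are given as CPM, counts divided by the scaled library size. All 7 genes were detected in every sample and passed the filter on low counts, with 17 counts (Tcf15 in 1 E6.0 epiblast) as the lowest value. Per kilobase of exon, which allows genes to be compared with each other, the mean CPM in the 6 FS samples was 34.7 for Fgf5, 29.1 for Sox4, 20.9 for Otx2, 15.8 for Sall2, 14.6 for Pou3f1, 6.63 for Foxd3 and 4.26 for Tcf15. In the 9 epiblasts the same quantity was 42.6 for Pou3f1, 33.4 for Fgf5, 30.8 for Sall2, 28.8 for Sox4, 27.5 for Otx2, 20.9 for Foxd3 and 17.0 for Tcf15. The order over the pooled epiblasts did not hold at every stage. Per kilobase, Tcf15 had 32.3 at E5.0, 15.1 at E5.5 and 3.65 at E6.0, and Sox4 had 18.04, the lowest of the 7 at E5.0, then 32.3 and 36.2. Pou3f1 had 49.0, 39.9 and 38.7 and was passed at E6.0 by Fgf5 with 39.4. Sums over 5 pluripotent epiblast genes (Pou5f1, Sox2, Nanog, Utf1 and Tdgf1) were 503 to 712 CPM in the cultured samples and 900.1 to 1201 CPM in epiblasts, with none of the 5 at 0 in any group.

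**Figure D1:**
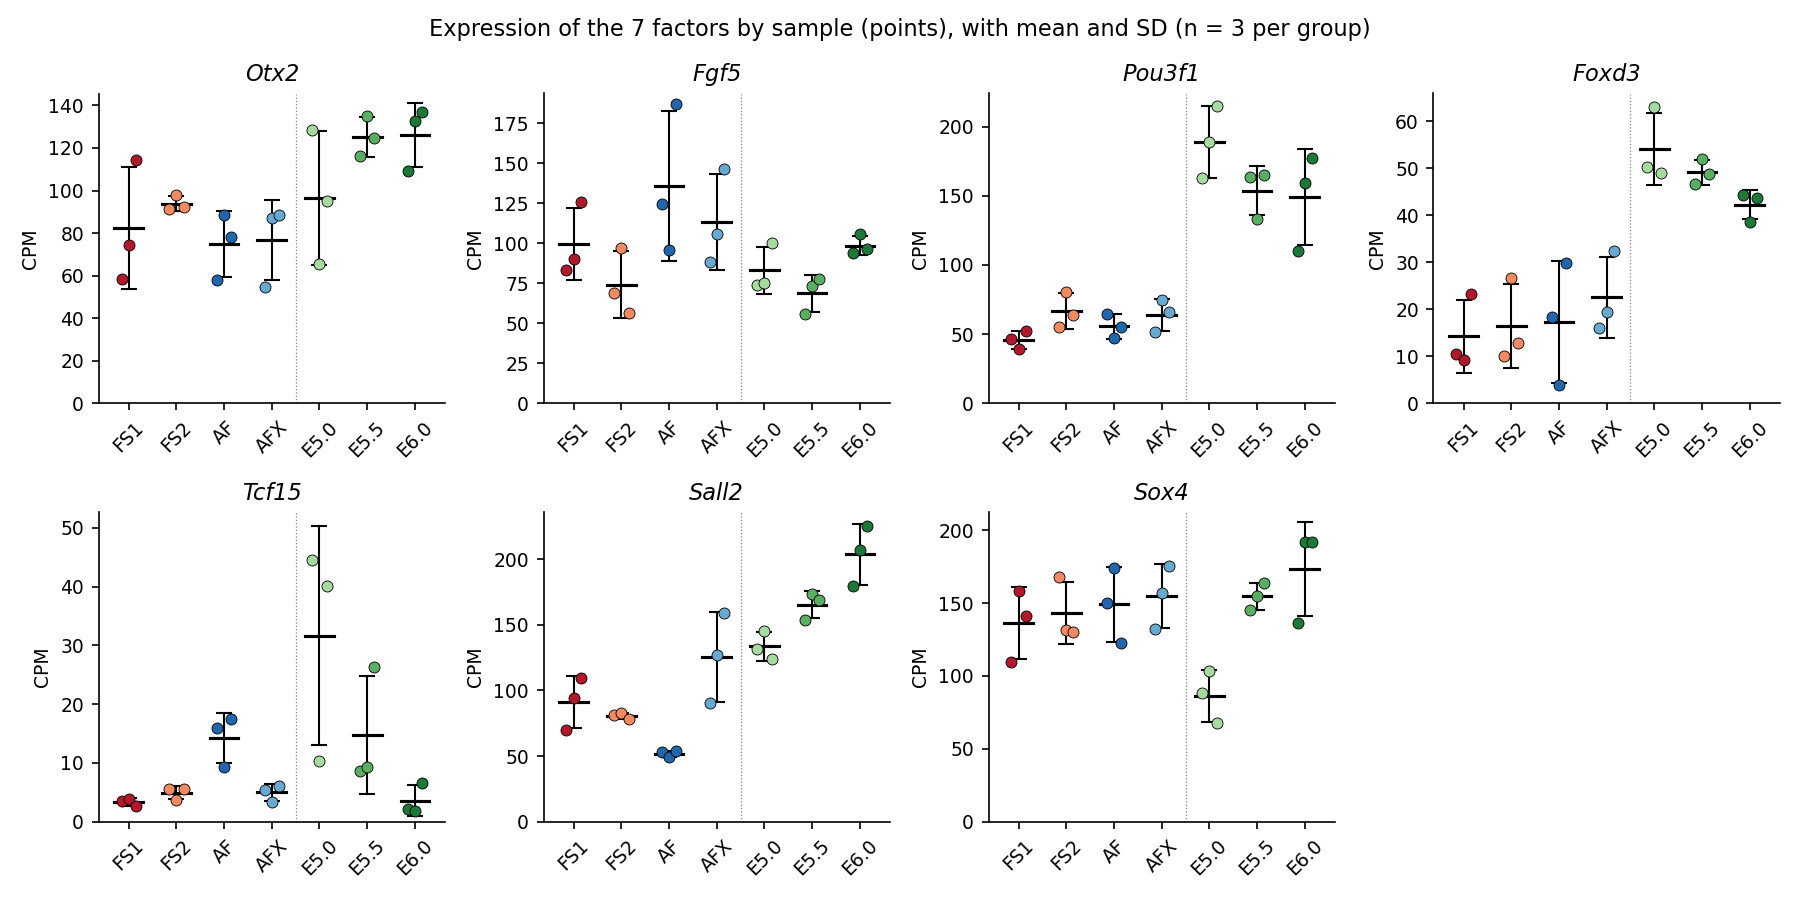
Level of each of the 7 genes in CPM (linear axes from 0) in each sample, with the mean and SD of 3 samples per group; cultured groups stand left of the dotted line and epiblasts right. Pou3f1 (39.6 to 80.7 CPM in culture, 110.4 to 215 CPM in epiblasts) and Foxd3 (3.87 to 32.3 CPM and 38.7 to 63.0 CPM) separate the 2 sides without overlap, and Sox4 is lowest at E5.0.

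Pou3f1, also called Oct6, is a POU domain transcription factor of the postimplantation epiblast. In FS1 its level was 46.1, 39.6 and 52.4 CPM at passages 10, 11 and 18, and in FS2 it was 55.2, 80.7 and 63.5 CPM at passages 12, 13 and 16. At passages 14, 15 and 16 it was 64.6, 47.0 and 55.2 CPM in AF and 51.8, 74.7 and 65.7 CPM in AFX. It was 163, 189 and 215 CPM in the E5.0 epiblasts, 163, 133 and 165 CPM at E5.5, and 110.4, 159 and 177 CPM at E6.0. The lowest epiblast therefore lay above the highest cultured sample, while the 4 cultured groups lay close together. FS cells were lower than epiblasts at each stage by edgeR's quasi-likelihood test, by 3.35-fold against E5.0 (log2 fold change -1.75 ± 0.18 SE, adjusted p = 5.89e-08), 2.73-fold against E5.5 (adjusted p = 1.35e-06) and 2.65-fold against E6.0 (adjusted p = 3.35e-06). AF and AFX were lower than E6.0 epiblasts by 2.68-fold and 2.33-fold (adjusted p = 3.57e-05 and 0.000204). No difference between FS, AF and AFX passed the threshold, and the 95% interval of the log2 difference of FS from AF ran from -0.40 to 0.41. FS2 lay above FS1 without overlap of their passages, by a log2 difference of 0.51 ± 0.18 SE that missed the threshold (adjusted p = 0.138).

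Foxd3 is a forkhead factor known for its role in the epiblast and later in the neural crest. Its level was 10.4, 9.21 and 23.2 CPM in FS1, 9.96, 26.7 and 12.9 CPM in FS2, 18.4, 3.87 and 29.8 CPM in AF and 16.03, 19.4 and 32.3 CPM in AFX, passages in the order given above. The E5.0 epiblasts had 50.3, 63.0 and 49.0 CPM, those of E5.5 46.6, 51.9 and 48.9 CPM, and those of E6.0 44.2, 38.7 and 43.8 CPM. All cultured samples lay below all epiblasts, and relative to its mean Foxd3 varied more among cultured samples than among epiblasts. The SD was 8.92 CPM around a mean of 17.7 CPM in the 12 cultured samples, and 6.76 CPM around 48.5 CPM in the 9 epiblasts. FS cells had 3.51-fold less Foxd3 than E5.0 epiblasts (log2 fold change -1.81 ± 0.42 SE, adjusted p = 0.0017), 3.19-fold less than E5.5 (adjusted p = 0.00375) and 2.74-fold less than E6.0 (adjusted p = 0.0115). AF against E6.0 had a similar value of -1.29 ± 0.51 SE that missed the threshold (adjusted p = 0.0594). The call was made without AF passage 16 (log2 fold change -1.95, adjusted p = 0.013) and by DESeq2 (adjusted p = 0.0461). Without AF passage 15 the value was -0.80 (adjusted p = 0.155), so the size depended on single passages. AFX against E6.0 gave -0.90 ± 0.50 SE (adjusted p = 0.181), which passed the threshold where only AFX and E6.0 were fitted (adjusted p = 0.0099). Sums over 7 neural crest genes were 6.91 to 39.99 CPM in culture and 1.95 to 9.61 CPM in epiblasts. The list did not move as one. Of the 4 tested in FS against E5.0 and against E5.5, Sox9 was higher and Tfap2a lower at both stages. Over all genes, 51.8% and 43.8% were called in these comparisons.

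Pou3f1 and Foxd3 were the 2 of 7 genes for which all 12 cultured samples lay below all 9 epiblasts, a pattern found in 5.81% of the 16614 genes tested over all 21 samples. Across the 21 samples the Pearson correlation of their log2 CPM was 0.85, but it was 0.61 within the 12 cultured samples and 0.28 within the 9 epiblasts. The samples share a line or a stage, so these correlations are descriptions only.

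The sequence upstream of Foxd3 is shown beside that of Fgf5, a gene whose level did not separate culture from epiblast. Both genes have a single start in the promoter table of RefSeq (GRCm38.p6). Sox4 has a single start there too, and its window, not shown, held none of the motifs listed below. The table held 9 promoters for 5 of the 7 genes, and Pou3f1 and Tcf15 are named only. Each sequence is the 250 bases before the start on the plus strand, at chr4:99656049-99656298 for Foxd3 and chr5:98253934-98254183 for Fgf5, and capitals mark matches on either strand to the motifs searched.
Foxd3: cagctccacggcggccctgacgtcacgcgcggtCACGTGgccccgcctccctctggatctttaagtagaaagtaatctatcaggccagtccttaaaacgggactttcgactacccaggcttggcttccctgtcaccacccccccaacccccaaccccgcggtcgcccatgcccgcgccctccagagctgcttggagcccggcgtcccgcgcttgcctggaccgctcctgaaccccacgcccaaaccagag
Fgf5: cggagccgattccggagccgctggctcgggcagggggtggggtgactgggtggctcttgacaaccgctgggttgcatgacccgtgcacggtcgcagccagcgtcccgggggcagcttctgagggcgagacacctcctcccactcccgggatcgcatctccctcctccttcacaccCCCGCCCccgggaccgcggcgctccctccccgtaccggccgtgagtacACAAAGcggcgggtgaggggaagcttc
The motifs were the octamer ATGCAAAT, the OTX motif TAATCC, the SOX and TCF motif ACAAAG, the forkhead motif TGTTTAC, the E-boxes CATATG and CACGTG, and the SP and KLF motif GGGCGGG. None of them overlaps another in these windows. The Foxd3 window held 1 CACGTG, starting 217 bases before the start, and the Fgf5 window held 1 ACAAAG (27 bases before the start) and 1 GGGCGGG (75 bases before, on the minus strand as CCCGCCC). Of 32851 mouse promoter windows of the same length, 6.02% held CACGTG, 16.5% ACAAAG and 23.4% GGGCGGG, so these motifs are common. The GC content was 65.6% for Foxd3 and 70.8% for Fgf5. Foxd3 is a single exon gene on chromosome 4 (99656299 to 99658622 in GENCODE M21, GRCm38, plus strand), and Pou3f1 is a second one on that chromosome (124656807 to 124660655, plus strand).

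Sall2, a zinc finger factor of the spalt family, separated more groups than any of the other 6 genes, passing the threshold in 9 of 12 comparisons. Its level was 69.9, 94.2 and 109 CPM in FS1 and 81.5, 82.8 and 78.3 CPM in FS2. In AF it was 52.9, 49.2 and 53.5 CPM, and in AFX 90.6, 127 and 159 CPM. Every AF passage was below every FS passage, and every AFX passage was above every AF passage, while FS and AFX overlapped. Between the AF and AFX media, Sall2 was 2.42-fold higher in AFX (log2 fold change 1.27 ± 0.19 SE, adjusted p = 0.00137). FS cells had 1.65-fold more Sall2 than AF (0.72 ± 0.17 SE, adjusted p = 0.00786) and 1.47-fold less than AFX (-0.55 ± 0.16 SE, adjusted p = 0.0437). The difference from AFX was lost in 8 of 17 alternatives, among them without AFX passage 16 (-0.35, adjusted p = 0.282), without AFX passage 15 (adjusted p = 0.139) and with FS1 alone (-0.46, adjusted p = 0.238). AF also stood apart in the summed level of 8 feeder fibroblast genes, at 233 to 305 CPM against 16.3 to 45.3 CPM in FS and 37.99 to 63.8 CPM in AFX. The part of such signal in the Sall2 differences was not tested.

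In the embryo, Sall2 was 132, 145 and 124 CPM at E5.0, 154, 173 and 169 CPM at E5.5, and 179, 207 and 225 CPM at E6.0. The 3 stages did not overlap. The 1.51-fold rise from E5.0 to E6.0 passed the threshold (0.59 ± 0.11 SE, adjusted p = 0.00201), and the steps through E5.5 did not (0.29 and 0.30, adjusted p = 0.138 and 0.157). FS cells were lower than epiblasts by 1.55-fold at E5.0, 1.92-fold at E5.5 and 2.37-fold at E6.0 (adjusted p = 0.000623, 1.02e-05 and 4.55e-07). AF was 3.93-fold lower than E6.0 (-1.97 ± 0.17 SE, adjusted p = 1.7e-08) and AFX 1.62-fold lower (-0.70 ± 0.16 SE, adjusted p = 0.00247). In all, 10 of 12 cultured samples lay below the lowest epiblast, and the 2 that did not were AFX passages 15 and 16.

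Tcf15 is a basic helix-loop-helix factor known from epiblast cells leaving the naive state and from somites. In FS cells it was 3.57, 3.90 and 2.69 CPM in FS1 and 5.62, 3.69 and 5.57 CPM in FS2, and in AFX it was 5.43, 3.37 and 6.15 CPM. In AF it was 15.9, 9.40 and 17.5 CPM, above every FS and AFX passage. FS cells had 3.42-fold less Tcf15 than AF (-1.78 ± 0.27 SE, adjusted p = 0.000399), and AFX had 2.84-fold less than AF (-1.51 ± 0.33 SE, adjusted p = 0.0117). The second call was lost without AFX passage 15 (-1.30, adjusted p = 0.0585). Besides the feeder fibroblast genes, other lists were also high in AF. The sum over 11 visceral endoderm genes was 119 to 249 CPM against 39.0 to 84.0 CPM in FS and 70.9 to 100.02 CPM in AFX. Of that list, Amn, Ttr and Afp were at 3 counts or fewer in every AF sample. Those called lower in FS than in AF were Gata4, Gata6, Sox17 and Dab2, 4 of the 5 tested, where 19.5% of all genes were called. The primitive streak sum (8 genes) was 121 to 414 CPM in AF against 34.8 to 132 CPM in FS, and the naive sum (10 genes) 45.01 to 69.6 CPM against 6.85 to 14.3 CPM. Their part in the Tcf15 difference was not tested. The paraxial mesoderm list, of the tissue where Tcf15 is known later, was at 0.422 to 6.05 CPM in all cultured samples for 5 genes, with Msgn1 and Tcf21 at 0 throughout.

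In epiblasts Tcf15 was 44.4, 10.4 and 40.2 CPM in E5.0 embryos 1, 2 and 4, 8.70, 9.40 and 26.4 CPM in E5.5 embryos 1, 2 and 3, and 2.23, 1.90 and 6.60 CPM in E6.0 embryos 1, 2 and 3. The highest E6.0 embryo lay below the lowest E5.5 and E5.0 embryos, while E5.0 and E5.5 overlapped. From E5.0 to E6.0 Tcf15 fell 8.96-fold (log2 fold change -3.16 ± 0.75 SE, adjusted p = 0.0192), a call lost without E5.0 embryo 4 or E6.0 embryo 1 or 2 (adjusted p = 0.0501, 0.0816 and 0.081) or with no filter on low counts (adjusted p = 0.0567). Without E6.0 embryo 3 the log2 fold change was -3.94. The steps to and from E5.5 were -1.11 ± 0.68 and -2.05 ± 0.74 SE (adjusted p = 0.391 and 0.178). FS cells were 7.56-fold below E5.0 (-2.92 ± 0.43 SE, adjusted p = 1.08e-05) and 3.54-fold below E5.5 (-1.82 ± 0.43 SE, adjusted p = 0.00191). The latter was -1.10 (adjusted p = 0.0606) without E5.5 embryo 3. Against E6.0, FS cells gave 0.23 ± 0.48 SE with a 95% interval from -0.77 to 1.24, while AF was 3.98-fold higher (1.99 ± 0.54 SE, adjusted p = 0.00736, and 2.79 without E6.0 embryo 3).

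Genes of the visceral endoderm, the layer that surrounds the epiblast, also fell across these stages, 8 of the 9 tested being lower at E6.0 than at E5.0, where 21.8% of all genes were called. The sum over its 11 genes was 839, 1149 and 598 CPM in E5.0 embryos 1, 2 and 4, 160 to 194 CPM at E5.5 and 110.3 to 140 CPM at E6.0, where Ttr and Afp were at 3 counts or fewer in every embryo. Within E5.0 the orders differed: of the 3 embryos, embryo 2 had the highest visceral endoderm sum and Foxd3 level and the lowest Tcf15 and Otx2 levels. The part of the visceral endoderm signal in the stage differences was not tested.

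**Figure D2:**
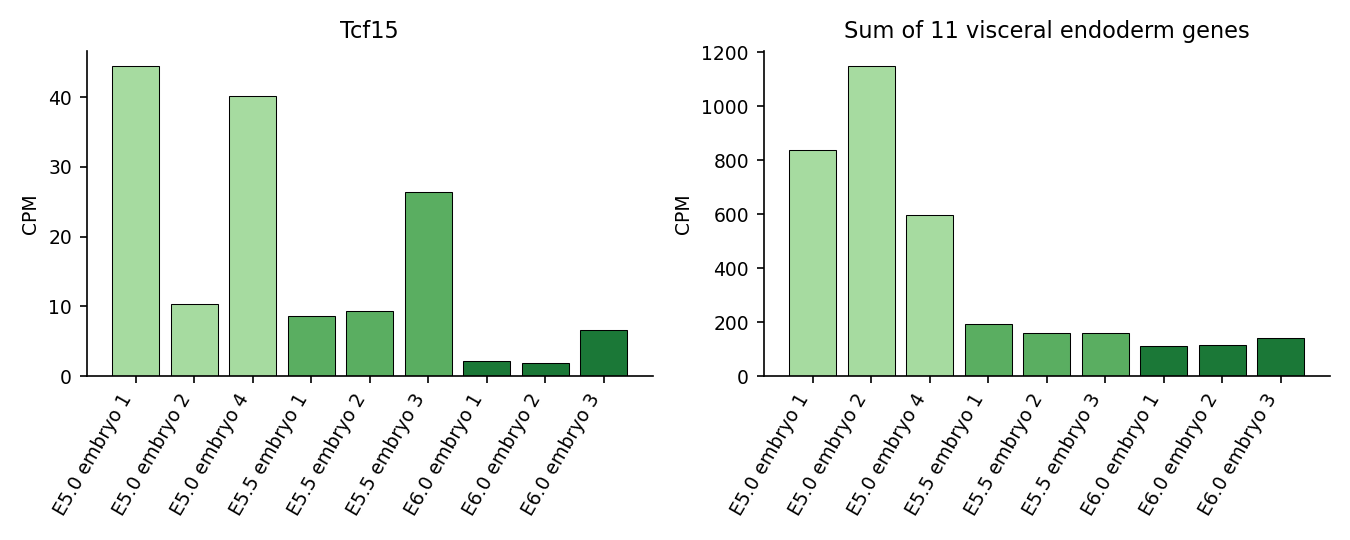
Tcf15 (left) and the sum of 11 visceral endoderm genes (right), both in CPM on linear axes from 0, as one bar for each of the 9 epiblasts. Both are lowest at E6.0, but E5.0 embryo 2 has the highest endoderm sum (1149 CPM) with a Tcf15 level of 10.4 CPM against 44.4 and 40.2 CPM in the other E5.0 embryos.

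Sox4, an SRY-box factor of group C expressed in many progenitor cells, was 88.5, 103 and 67.7 CPM in the E5.0 epiblasts, 145, 155 and 164 CPM at E5.5 and 136, 192 and 192 CPM at E6.0. Every E5.0 epiblast was below every other epiblast. Sox4 rose 1.77-fold from E5.0 to E5.5 (0.83 ± 0.16 SE, adjusted p = 0.00941) and was 1.99-fold higher at E6.0 than at E5.0 (0.99 ± 0.16 SE, adjusted p = 0.000687), with no call between E5.5 and E6.0 (0.16 ± 0.16 SE, adjusted p = 0.658). In culture it was 109.7, 158 and 141 CPM in FS1, 168, 131 and 130.0 CPM in FS2, 150.2, 174 and 123 CPM in AF and 132, 157 and 175 CPM in AFX. All 12 cultured samples lay above the 3 E5.0 epiblasts and overlapped the later stages. FS cells had 1.62-fold more Sox4 than E5.0 epiblasts (0.69 ± 0.16 SE, adjusted p = 0.00073). No comparison among cultured groups was called, with log2 differences between -0.16 and 0.05.

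Otx2, a homeobox factor of the formative transition and later of the anterior embryo, was 58.4, 74.6 and 114 CPM in FS1, 91.5, 97.8 and 92.3 CPM in FS2, 57.8, 88.6 and 78.3 CPM in AF and 54.9, 87.1 and 88.3 CPM in AFX. It was 129, 65.5 and 95.2 CPM at E5.0, 116, 135 and 125 CPM at E5.5 and 109, 133 and 137 CPM at E6.0. The group means ran from 126 CPM at E6.0 down to 74.9 CPM in AF, and every neighbour in that order overlapped. Otx2 was lower in AF and AFX than at E6.0 by 1.68-fold and 1.65-fold (-0.75 and -0.72, both ± 0.24 SE, adjusted p = 0.0182 and 0.0246), without overlap, and each call was lost in 4 alternatives (adjusted p up to 0.0879 and 0.132), among them without passage 14 of the cultured group or without E6.0 embryo 2 or 3. FS cells were 1.42-fold below E5.5 without overlap and 1.43-fold below E6.0 with overlap at FS1 passage 18 (-0.51 and -0.52, both ± 0.20 SE). These adjusted p-values of 0.0464 and 0.0462 lay next to the threshold, and the calls were lost in 12 of 17 and 11 of 17 alternatives. From E5.0 to E5.5 and to E6.0 the differences were 0.36 and 0.37 (adjusted p = 0.289 and 0.19), and both passed without E5.0 embryo 1 (0.63 and 0.65, adjusted p = 0.0377 and 0.0148). Without E5.0 embryo 2 they were 0.16 and 0.17, and over all alternatives the adjusted p ran up to 0.626 and 0.507. The difference from E5.0 to E6.0 was also called by edgeR with no filter on low counts (0.40, adjusted p = 0.0272).

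Fgf5 is the 1 secreted ligand among the 7, a fibroblast growth factor widely used as a marker of the postimplantation epiblast. It was 83.6, 90.0 and 126 CPM in FS1 and 68.8, 97.1 and 56.1 CPM in FS2, and 125, 95.5 and 187 CPM in AF and 88.3, 106 and 146 CPM in AFX. The epiblasts had 74.1, 74.9 and 100.1 CPM at E5.0, 55.7, 73.0 and 77.8 CPM at E5.5 and 94.0, 106 and 96.3 CPM at E6.0. The order of group means, from 136 CPM in AF to 68.8 CPM at E5.5, mixed culture and embryo, and all neighbours in it overlapped. Fgf5 passed the threshold in 0 of 12 comparisons by edgeR. The nearest were E6.0 against E5.5 (0.52 ± 0.15 SE, adjusted p = 0.0741, no overlap) and FS against AF (-0.66 ± 0.25 SE, adjusted p = 0.0898, overlapping). The first was called by edgeR with no filter on low counts (adjusted p = 0.00998) and with only the 2 stages fitted (adjusted p = 0.0249), and FS2 against FS1 was called with no filter (-0.44, adjusted p = 0.038). DESeq2 called E6.0 against E5.5 and FS against AF (adjusted p = 0.0359 and 0.039), and edgeR called the latter without FS1 passage 18 (-0.80, adjusted p = 0.0329) and with FS2 alone (-0.90, adjusted p = 0.0376). Without AF passage 16 the difference from AF was -0.36 (adjusted p = 0.403). The 95% interval of the log2 difference of FS from E5.5, the stage with the lowest mean, was -0.14 to 0.81.

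Among the cultured groups, at most 2 of the 7 genes were called in any comparison. FS against AF gave 2 of 7 (Sall2 higher, Tcf15 lower), where 19.5% of the 16052 genes tested were called. FS against AFX gave 1 (Sall2) with a background of 8.7%, and AFX against AF gave 2 (Sall2 higher, Tcf15 lower) with 8.73%. FS2 against FS1 gave 0 by edgeR, with 1 at an unadjusted p under 0.05 (Pou3f1) and 0 by DESeq2, where 3.85% of genes were called. The median log2 difference of the 7 genes between FS and AF was -0.10 against 0.02 for all genes tested.

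**Figure D3:**
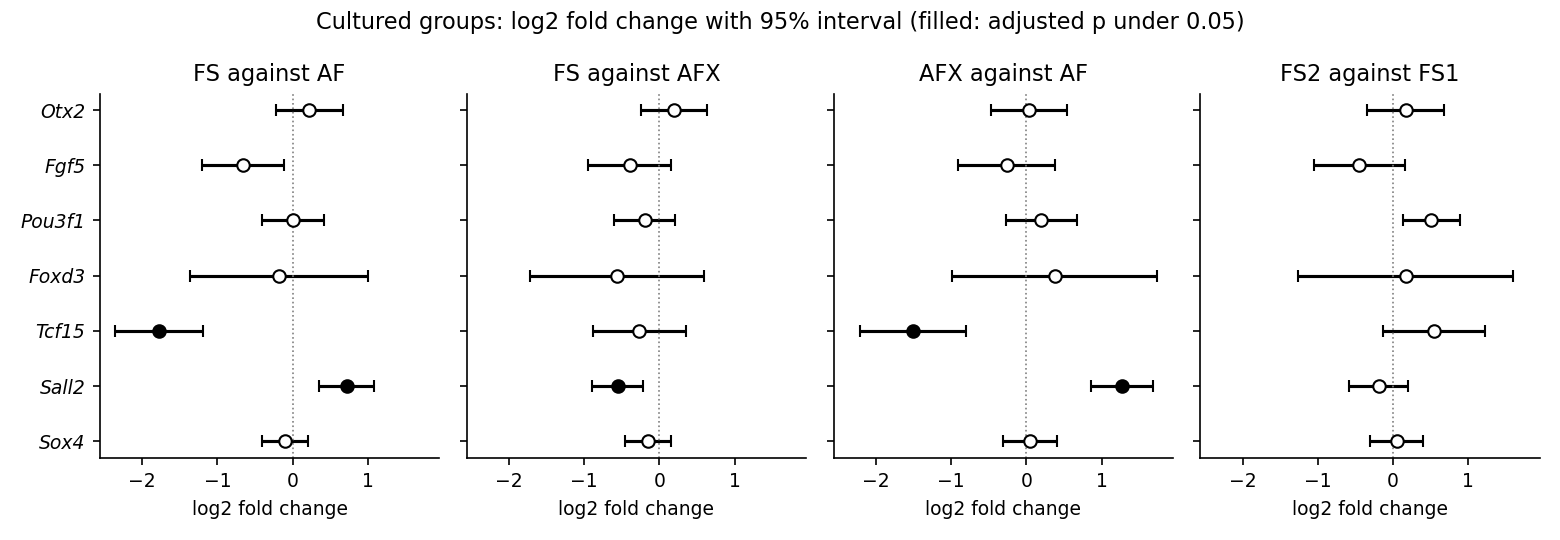
Log2 fold changes (x axis) of the 7 genes in the 4 comparisons among cultured groups, with 95% intervals; filled points passed an adjusted p of 0.05. Only Sall2 and Tcf15 have filled points, and the interval of Foxd3 is the widest in each panel.

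Between epiblast stages, E5.5 against E5.0 gave 1 of 7 (Sox4 higher) with 6.82% of 14228 genes called. E6.0 against E5.5 gave 0 by edgeR with 4.43% called, 3 at an unadjusted p under 0.05 (Fgf5, Sall2 and Tcf15) and 1 by DESeq2 (Fgf5). E6.0 against E5.0 gave 3 (Sall2 and Sox4 higher, Tcf15 lower) with 21.8% called. Sall2 and Sox4 had a correlation of 0.92 over the 9 epiblasts and 0.28 over the 12 cultured samples, and the stages are shared by 3 embryos each.

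Against epiblasts, FS cells were called for 5 of 7 genes at E5.0, where 51.8% of 16614 genes were called. Of these 5, Pou3f1, Foxd3, Tcf15 and Sall2 were lower and Sox4 higher, and 24.8% of all genes were called lower. At E5.5, 5 of 7 were called, all lower (Otx2, Pou3f1, Foxd3, Tcf15 and Sall2), against 43.8% of genes called and 20.8% called lower. At E6.0, 4 of 7 were called, all lower (Otx2, Pou3f1, Foxd3 and Sall2), against 38.9% and 18.9%. The median log2 difference of the 7 genes was -0.63, -0.94 and -0.52 at the 3 stages, against 0.06, 0.08 and 0.10 over all genes tested. AF gave 4 of 7 against E6.0 (Tcf15 higher, Otx2, Pou3f1 and Sall2 lower) with 35.2% of genes called, and AFX gave 3 (Otx2, Pou3f1 and Sall2 lower) with 32.8%. These comparisons share the FS samples or the E6.0 epiblasts and are not independent of each other, and culture and embryo also differ in how the cells were obtained. Markers of other cell types moved with them too. The sum over 8 neural genes was 285 to 466 CPM in the cultured samples and 48.7 to 162 CPM in epiblasts, without overlap, and the visceral endoderm sum was 39.0 to 84.0 CPM in FS against 598 to 1149 CPM at E5.0. Their part in these differences was not tested.

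**Figure D4:**
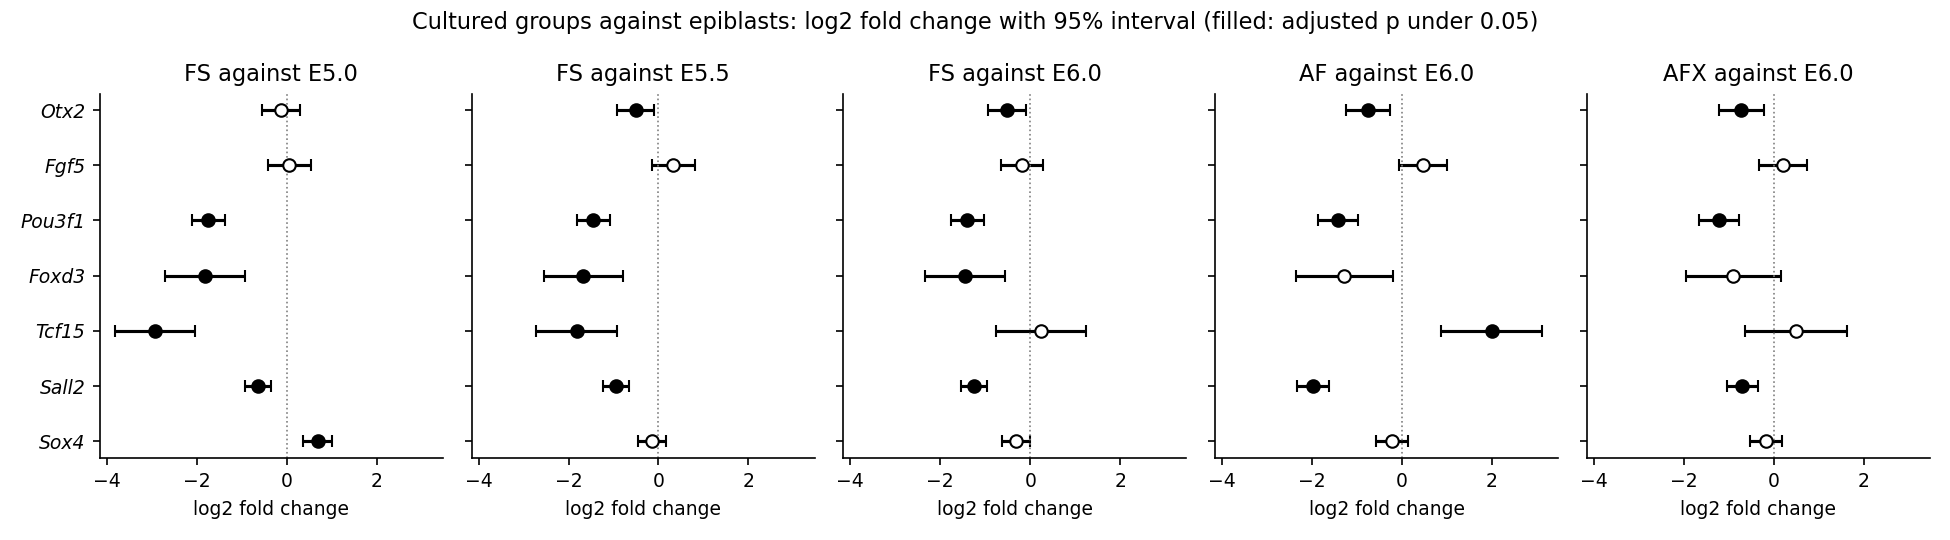
Log2 fold changes (x axis) of the 7 genes for FS, AF and AFX against epiblasts, with 95% intervals; filled points passed an adjusted p of 0.05. Pou3f1 and Sall2 are filled and below 0 in all 5 panels, Fgf5 is filled in none, and Tcf15 runs from -2.92 for FS against E5.0 to 1.99 for AF against E6.0.

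The other formative and postimplantation genes, a list of 15, were mostly lower in culture than in E6.0 epiblasts. Against E6.0, 12 of 15 were lower and none higher in FS, in AF and in AFX, with medians of -0.84, -1.08 and -0.94 on the log2 scale. Over all genes tested, 38.9%, 35.2% and 32.8% were called in these comparisons, and the medians were 0.10, 0.08 and 0.09. At the earlier stages some went the other way: FS cells had 4 of the 15 higher than E5.0 epiblasts (Zic2, Zic5, Sox11 and Lin28b) and 11 lower, and 2 higher than E5.5 epiblasts (Sox11 and Lin28b) and 9 lower, where 51.8% and 43.8% of all genes were called. The 12 genes lower in FS than at E6.0 included the DNA methyltransferases Dnmt3a (-1.50 ± 0.13 SE) and Dnmt3b (-1.75 ± 0.15 SE), the chromatin factor Utf1 (-1.39 ± 0.26 SE) and the ligand Nodal (-3.78 ± 0.65 SE). Against AF, FS cells had 5 of the 15 higher (Dnmt3b, Zic2, Zic5, Sox11 and Lin28b) and 2 lower (Etv4 and Nodal), where 19.5% of all genes were called. The feeder fibroblast (233 to 305 CPM in AF, 16.3 to 45.3 CPM in FS), visceral endoderm (119 to 249 and 39.0 to 84.0 CPM) and primitive streak sums (121 to 414 and 34.8 to 132 CPM) differed between these groups too. Of the visceral endoderm genes, Amn, Ttr and Afp were at 3 counts or fewer in every AF sample. The part of these sums was not tested. From E5.0 to E6.0, Dnmt3b, Zic2, Zic5, Sox11 and Lin28b rose, and Lef1, Grhl2, Etv5 and Utf1 fell.

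Fgf5 signals through FGF receptors to ERK, and the ERK feedback genes are read as targets of that pathway. Of 12 FGF receptor and feedback genes tested in culture, 6 were lower in FS than in AF and none higher, with a median of -0.60 against 0.02 for all genes, of which 19.5% were called in either direction. They were Dusp4, Dusp6 (-0.96 ± 0.18 SE), Spry1 (-1.02 ± 0.27 SE), Spry4 (-2.40 ± 0.36 SE), Spred1 (-0.73 ± 0.19 SE) and Etv4 (-0.84 ± 0.26 SE). Fgf5 was -0.66 in that comparison and was not called. The feeder fibroblast sum moved with this difference (233 to 305 CPM in AF, 16.3 to 45.3 CPM in FS), as did the visceral endoderm sum (119 to 249 and 39.0 to 84.0 CPM). Of the visceral endoderm genes, Amn, Ttr and Afp were at 3 counts or fewer in every AF sample. The part of these sums in the difference was not tested. Between the 2 FS lines, Dusp6 was called higher and Fgfr2 lower in FS2 than in FS1, where 3.85% of all genes were called. FS against AFX gave 2 lower (Dusp4 and Spry4), and AFX against AF gave Fgfr1 higher (0.57 ± 0.13 SE). The shares over all genes were 8.7% and 8.73%, so the count of 1 of 12 in AFX against AF lay at the background. Against E6.0 epiblasts, where 13 genes of the list were tested, FS cells had 8 lower and 3 higher, AF 3 lower and 2 higher, and AFX 5 lower and 3 higher. The shares called over all genes were 38.9%, 35.2% and 32.8%, so the AF count of 5 of 13 lay near the background. Of the 8 in FS, Dusp6 was -0.71 ± 0.16 SE and Spry4 -1.51 ± 0.31 SE. The related ligand Fgf4, also active in the early epiblast, fell from a mean of 109 CPM at E5.0 to 20.2 CPM at E6.0 (-2.45 ± 0.18 SE, adjusted p = 1.33e-06), and over the same stages Fgf5 gave 0.23 ± 0.15 SE.

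Of the 19 paralogs of the 7 genes, most were near 0. Otx1 and Crx did not pass a mean of 1.51 CPM in any group, Pou3f2, Pou3f3 and Pou3f4 had group means of at most 3.58 CPM, and Tcf21 and Fgf6 were at or next to 0. Members of the Sall and Sox families and Fgf4, described above, were at higher levels. Sall4, a core pluripotency factor, had means of 284 CPM in FS and 596 CPM at E6.0, and Sall1 had 101 and 182 CPM. Sox11, the closest relative of Sox4 in this list, had 238 CPM in FS, 157 CPM in AF and 216 CPM at E6.0. Sox11 was higher in FS than in AF (0.59 ± 0.12 SE, adjusted p = 0.00264) and rose from E5.0 to E6.0 (0.69 ± 0.11 SE), where Sox4 rose too.

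For each factor, 3 genes were listed by the Pearson correlation of log2 CPM over the 21 samples, out of 8137 genes with a mean of at least 10 CPM. The samples share groups, so a large r can come from the difference between culture and embryo alone. Pou3f1 was most like Etv5 (r = 0.97), an ETS factor on the formative list, and r was 0.78 within the 12 cultured samples and 0.77 within the 9 epiblasts. Its next were mt-Nd3 and Tuba3a (0.97 and 0.96), the latter with a near-identical copy and so uncertain. Foxd3 was most like Mdn1, Mat2a and Grwd1 (0.95, 0.94 and 0.93, with 0.90, 0.90 and 0.89 in culture and 0.67, 0.30 and 0.49 in epiblasts), of which Mdn1 and Grwd1 act in ribosome assembly. Sall2 was most like Nap1l1, Srsf10 and Cdca7 (0.93, 0.91 and 0.91), and Tcf15 most like Mast2, Tapbp and Rnh1 (0.88, 0.85 and 0.84). Fgf5 was most like Nefl, Ccdc174 and Ggct (0.84, 0.83 and 0.75), Sox4 most like Mta1, Msl1 and Msi1 (0.84, 0.83 and 0.83) and Otx2 most like Zfand5, Prpf38a and Rragb (0.78, 0.78 and 0.77). For Sox4, the r with Mta1 was 0.93 in epiblasts and 0.20 in culture.

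**Figure D5:**
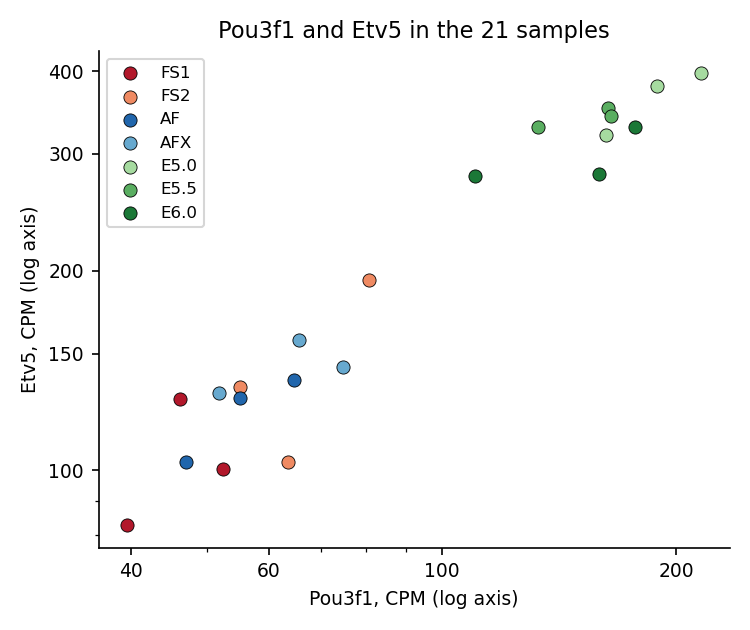
Pou3f1 (x axis) against Etv5 (y axis) in CPM on log axes, 1 point per sample coloured by group. The 9 epiblasts form the upper right and the 12 cultured samples the lower left, with r of 0.77 and 0.78 on log2 CPM within them.

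The genes lie at separate places in the genome (GENCODE M21, GRCm38), all protein coding. Otx2 is at chr14:48657677-48673819 on the minus strand and Sall2 at chr14:52311172-52328762 on the same strand of that chromosome. Fgf5 is at chr5:98254184-98277030 (plus), Tcf15 at chr2:152143561-152149097 (plus) and Sox4, a single exon gene, at chr13:28948919-28953713 (minus). Annotated genes on the opposite strand overlap 3 of them, and reads from such a pair cannot be told apart where strand was not used in counting. The totals over the 21 samples were 182 counts for Otx2os1 against 20566 for Otx2, 320 for Gm2164 against 20611 for Pou3f1, and 57 for Gm26735 against 30914 for Sox4. Gm26735 shares 2616 exonic bases with Sox4, and on the same strand Gm49154 shares 168 with Otx2 and the miRNA gene Gm23366 shares 89 with Foxd3. Reads over shared bases may not have been counted for either gene, which was not tested.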

How the data were processed

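RNA was prepared with the PicoPure kit from 1000 cells or from 1 epiblast, per the labels. The deposited values are raw counts per gene and sample, made by the authors with Trim Galore, TopHat2 2.1.0 and featureCounts 1.5.0 on mm10, per the submitters' processing notes. The annotation and the strand setting are not given in the sources used here.

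Counts were analysed with edgeR 4.0.16 in R 4.3.3: filterByExpr, TMM scaling, robust quasi-likelihood F-tests (two-sided), Benjamini-Hochberg adjustment over all genes tested, threshold 0.05. Cultured comparisons used 12 samples (both FS lines as 1 group, or split), stage comparisons 9, and culture against epiblast 21. SE is the absolute log2 fold change over the root of F, and intervals are at 95%. CPM use TMM over the 21 samples, and log2 CPM a prior count of 2. A value of 3 counts was 0.171 to 0.589 CPM. Replicate pairs differed beyond sampling noise (chi-square per degree of freedom 4.84 to 28.97 in 21 pairs). Groups follow the sample titles. The fit was tested on simulated data.

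The 7 genes and all lists were chosen with earlier results of these data known. The text names the 7 genes, genes of the lists and 3 most correlated genes per factor. Alternatives were DESeq2 1.42.0 (test and size factors), 2 other filters, only the groups compared, FS lines separate or alone, a replicate block and each replicate left out. A result for 1 gene of the lists is not reported here.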

Additional observations from a re-analysis of the deposited data

How the results depend on the processing

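Of 30 gene-by-comparison results past the threshold, 20 kept their call in every alternative run and none changed direction; 47 of 438 values lost the call. Of 54 not past it, 25 kept their side and direction throughout, and 18 of 724 values gained a call. Reversals were of values that had not passed the threshold. The log2 fold change of Pou3f1 in FS against AF was -0.00374 with DESeq2 size factors, -0.00285 with a mean of at least 5 CPM, -0.00431 with the DESeq2 test, -0.017 with FS lines as separate groups and -0.28 with FS line 1 alone. Otx2 in E6.0 against E5.5 was -0.00207 with the 5 CPM filter. With line 1 alone, Fgf5 and Tcf15 in FS against E6.0 were 0.0256 and -0.080. With line 2 alone, Pou3f1 in FS against AFX was 0.0307 and Fgf5 in FS against E5.0 was -0.17.

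Without a filter on low counts, 2 of the 7 genes were called in FS2 against FS1 and 1 in E6.0 against E5.5, and genes called were 1298 in FS2 against FS1, 1659 in E5.5 against E5.0 and 1107 in E6.0 against E5.5, compared with 618, 971 and 631. The DESeq2 test called 1099, 1590 and 1075 genes in the same order and 1 of the 7 in E6.0 against E5.5. With only the groups compared these counts were 1045, 453 and 1445, with 1 of the 7 in E6.0 against E5.5 and 0 in FS against AFX, where line 1 alone also gave 0. The cause was not tested.

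Same-numbered samples did not deviate together (correlations from -0.12 to 0.20 for AF with AFX, and from -0.05 to 0.10 between stages), so the numbers were not taken to pair them. With the replicate block, genes called were 907 in AFX against AF, 70 in E5.5 against E5.0, 1607 in E6.0 against E5.5 and 1372 in E6.0 against E5.0, compared with 1401, 971, 631 and 3100, and 0 of the 7 were called in E5.5 against E5.0 and 3 in E6.0 against E5.5. The block took the call from Sox4 in E5.5 against E5.0 (0.64, adjusted p = 0.206) and from Sall2 in E6.0 against E5.0 (0.47, adjusted p = 0.0833), and gave one to Fgf5, Sall2 and Tcf15 in E6.0 against E5.5 (adjusted p = 0.0151, 0.0472 and 0.00105).

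Leaving out each replicate, genes called ranged from 732 to 1129 in AFX against AF, 371 to 1260 in E5.5 against E5.0, 1905 to 3362 in E6.0 against E5.0, 238 to 372 in E6.0 against E5.5, 820 to 1485 in FS against AFX and 316 to 478 in FS2 against FS1. Of the 7, 1 to 2 were called in AFX against AF and in E5.5 against E5.0, 0 to 1 in FS against AFX and 3 to 5 in FS against E5.5. Log2 fold changes that changed sign when leaving out a replicate ranged as follows. Fgf5 ranged from -0.49 to 0.0273 in AFX against AF, -0.0231 to 0.36 in AFX against E6.0 and -0.075 to 0.23 in FS against E5.0. Foxd3 ranged from -0.10 to 1.03 in AFX against AF, -0.66 to 0.48 in FS against AF and -0.35 to 0.71 in FS2 against FS1. Otx2 ranged from -0.14 to 0.21 in AFX against AF, -0.0485 to 0.11 in E6.0 against E5.5, -0.36 to 0.14 in FS against E5.0 and -0.0345 to 0.47 in FS2 against FS1. Pou3f1 ranged from -0.19 to 0.13 in E6.0 against E5.5 and -0.12 to 0.12 in FS against AF. Sox4 ranged from -0.085 to 0.18 in AFX against AF, -0.24 to 0.0241 in FS against AF and -0.0926 to 0.19 in FS2 against FS1. Tcf15 ranged from -0.0872 to 1.03 in FS against E6.0. With 3 samples in most groups, the number of samples limits these values, and the lowest count was 17 for Tcf15 and 44 for the other 6 genes.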
